A study of Mus musculus with 30 samples.

Results

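The smooth muscle contractile programme was followed as 35 genes through 10 sorted mesenchymal populations of the mouse gut, 3 bulk RNA-seq libraries each. The 35 genes were named by their known place in the contractile machinery or its control: myosin, actin, thin filament proteins, dense body and intermediate filament proteins, calcium handling, relaxation, transcriptional control and energy buffering. These genes were chosen with earlier results of these data known. They are 35 of 32316 gene symbols, and all 35 were among the 17542 genes with enough counts to be tested.

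Cells came from the lamina propria of the small intestine (SI) and colon of untreated C57BL6/Nrj mice aged 8 to 10 weeks, from 3 individual mice, after Peyer's patches and the outer muscle layer had been removed. Dead, blood-lineage, endothelial, epithelial, BP3+ and NCAM hi cells were excluded, and the rest were sorted with antibodies to surface proteins. Smooth muscle cells (SMC; SI only) were PDGFRα-ESAM-1+PDPN+, and pericytes of both tissues were PDGFRα-ESAM-1+PDPN-. All fibroblasts (FB) lacked ESAM-1. In SI the PDGFRα hi FB lacked CD34, the Fgfr2+ FB were PDGFRα intCD34- and the CD34+ FB were PDGFRα intCD34+, the last a mixture of Igfbp5+ and CD81+ FB. In colon the PDGFRα hi FB were PDPN+CD34-, the Fgfr2+ FB PDPN hiCD34+CD90-, the CD90+ FB PDPN hiCD34+CD90+ and the CD81+ FB PDPN intCD34+CD90-. No SMC were sorted from colon, so SMC could be compared only within SI, and whether colonic SMC entered another colonic gate was not tested. In bulk samples a lower level can come from fewer cells that make an RNA or from less of it per cell, and these cannot be told apart.

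Smooth muscle shortens when calcium, entering through membrane channels or released from stores, binds calmodulin and switches on a kinase that phosphorylates the myosin light chain, so that myosin pulls on actin filaments. Thin filament proteins tune that sliding, dense bodies and intermediate filaments carry the force through the cell, and the nitric oxide and cGMP pathway brings relaxation. Most of these genes are switched on by serum response factor (SRF) bound to a short DNA element, the CArG box, with its partner myocardin.

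Each level is a count adjusted for TMM-normalized library size (CPM), listed for replicates 1, 2 and 3 in that order. "Called" means an adjusted p under 0.05 with more than 1.5 log2 units of difference, a log2 unit being a doubling, and SE is the standard error. Against several FB populations the reference is the mean of their log2 levels.

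Some libraries stood apart. Replicate 1 of SI pericytes had the lowest mean correlation with its replicates of all 30 libraries (0.737), and it held 191 CPM of the B cell gene *Cd79a* where the other SI pericyte libraries held 0.851 and 1.58. Its *Pgm5* and *Cacna1d* (460 and 83.0 CPM) were high beside its replicates, and its *Smtn* (4.71 CPM) was low. Replicate 3 of SMC held 9243 CPM of *Cald1* against 3304 and 2654 in the others, and more *Pecam1* (174 CPM) and *Muc2* (65.8 CPM). Replicate 1 of colonic CD81+ FB held 146 CPM of *Lmod1* and 79.8 of *Myocd*, and its replicates at most 1.70 and 2.71. Replicate 2 of colonic pericytes had less *Myocd* (41.1 CPM), *Srf* (38.9 CPM) and *Cnn1* (20.3 CPM) than its replicates. Without replicate 1 of SI pericytes, 18 members were called between SMC and SI pericytes in place of 17, 14 between SI pericytes and SI FB in place of 20, 9 between the pericytes of the tissues in place of 7, and 10 in the tissue difference of pericytes in place of 13. Without replicate 3 of SMC, 18, 23 and 18 members were called against pericytes, FB and PDGFRα hi FB in place of 17, 25 and 17.

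Marker genes of other cell types were read in the same libraries. The 10 pericyte markers summed to 4358 to 8254 CPM in SMC and 34968 to 54797 in the 6 pericyte libraries, *Rgs5* having the highest CPM, and 3072 to 4399 in the SI PDGFRα hi and CD34+ FB. SI Fgfr2+ FB held 2269 to 2452 CPM of them. In colon the sums were 293 to 484 (CD81+ FB), 356 to 473 (CD90+ FB), 696 to 1003 (Fgfr2+ FB) and 601 to 673 CPM (PDGFRα hi FB). *Notch3* was at 5.0, 8.80 and 5.56 CPM in SMC and 5237, 7025 and 5658 in SI pericytes. The 8 fibroblast markers summed to 7639 to 13059 CPM in SMC, 2225 to 4524 in pericytes and 16163 to 95567 in FB. Endothelial markers reached at most 395 CPM (CD81+ FB, through *Tek*), immune markers 412 CPM (replicate 1 of SI pericytes), epithelial markers 121, glial and neuronal markers 26.8 and mesothelial markers 16.5. Markers of interstitial cells of Cajal summed to 646 to 1171 CPM in the pericyte libraries, mainly *Ano1*, while *Kit* did not pass 8.24 CPM there, and to 1123 to 2347 CPM in PDGFRα hi FB, mainly through *Ednrb*, *Gja1* and *Etv1*. The 8 smooth muscle markers, 7 of them also members, summed to 18863 to 23082 CPM in SMC, 8375 to 9545 in colonic pericytes and 3521 to 4535 in SI pericytes. The pericyte markers overlapped between the pericytes of the tissues (34968 to 52567 CPM in SI, 35428 to 54797 in colon). Whether any of these markers came from admixed cells was not tested.

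The members took up 5.82, 4.77 and 4.03% of all gene counts in SMC, 3.19, 2.97 and 3.61% in colonic pericytes and 1.75, 1.35 and 1.83% in SI pericytes. PDGFRα hi FB gave 1.51, 1.82 and 1.66% (SI) and 1.26, 1.16 and 1.48% (colon), and the 15 libraries of the other FB populations 0.230 to 0.706%. Thus the order of the shares was SMC, colonic pericytes, then SI pericytes and the PDGFRα hi FB, whose libraries overlapped in SI, and last the other FB. SMC had the highest mean CPM for 23 of the 35 genes, colonic pericytes for 6 (*Actn1*, *Casq2*, *Pln*, *Cacna1c*, *Mrvi1* and *Prkg1*), SI pericytes for 3 (*Synpo2*, *Des* and *Ryr2*), SI PDGFRα hi FB for 2 (*Ryr3* and *Cacna1d*) and CD90+ FB for 1 (*Synm*). With each library left out in turn, a check chosen after seeing the data, SMC had the highest mean for 22 to 24. *Cald1* was then highest in colonic pericytes without replicate 3 of SMC, *Cnn3* in SI pericytes without replicate 2 of SI pericytes, and *Cnn2* in SI PDGFRα hi FB without replicate 1 of SMC or replicate 3 of SI PDGFRα hi FB. In other populations the place of *Synpo2*, *Actn1*, *Casq2* and *Synm* also rested on single libraries. CD81+ FB had the lowest mean for 12. Shares over all genes are not given for these highest and lowest means, so whether the members stand out in them is not shown. For 14 members, all 3 SMC libraries lay above the other 27 (*Myh11*, *Myl6*, *Mylk*, *Acta2*, *Actg2*, *Cnn1*, *Tpm1*, *Tpm2*, *Lmod1*, *Flna*, *Pgm5*, *Hspb6*, *Myocd* and *Ckb*), as they did for 0.918% of the genes tested. In CD81+ FB, all 3 libraries lay below the other 27 for *Mylk*, *Acta2*, *Actg2*, *Tpm1* and *Flna*, as they did for 0.291% of genes. Other populations that stood apart from all others did so for at most 2 members: colonic pericytes above for *Pln* and *Mrvi1* (0.941% of genes), SI pericytes above for *Des* (0.604%) and below for *Synm* (0.775%), SI PDGFRα hi FB above for *Cacna1d* (0.650%), colonic PDGFRα hi FB below for *Des* (0.0855%) and CD90+ FB below for *Myl9* (0.0114%). Colonic Fgfr2+ FB stood above or below for 0 members (0.0798 and 0.0228% of genes), as did SI CD34+ FB (0.319 and 0.0342%) and SI Fgfr2+ FB (0.257 and 0.120%).

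**Figure D1:**
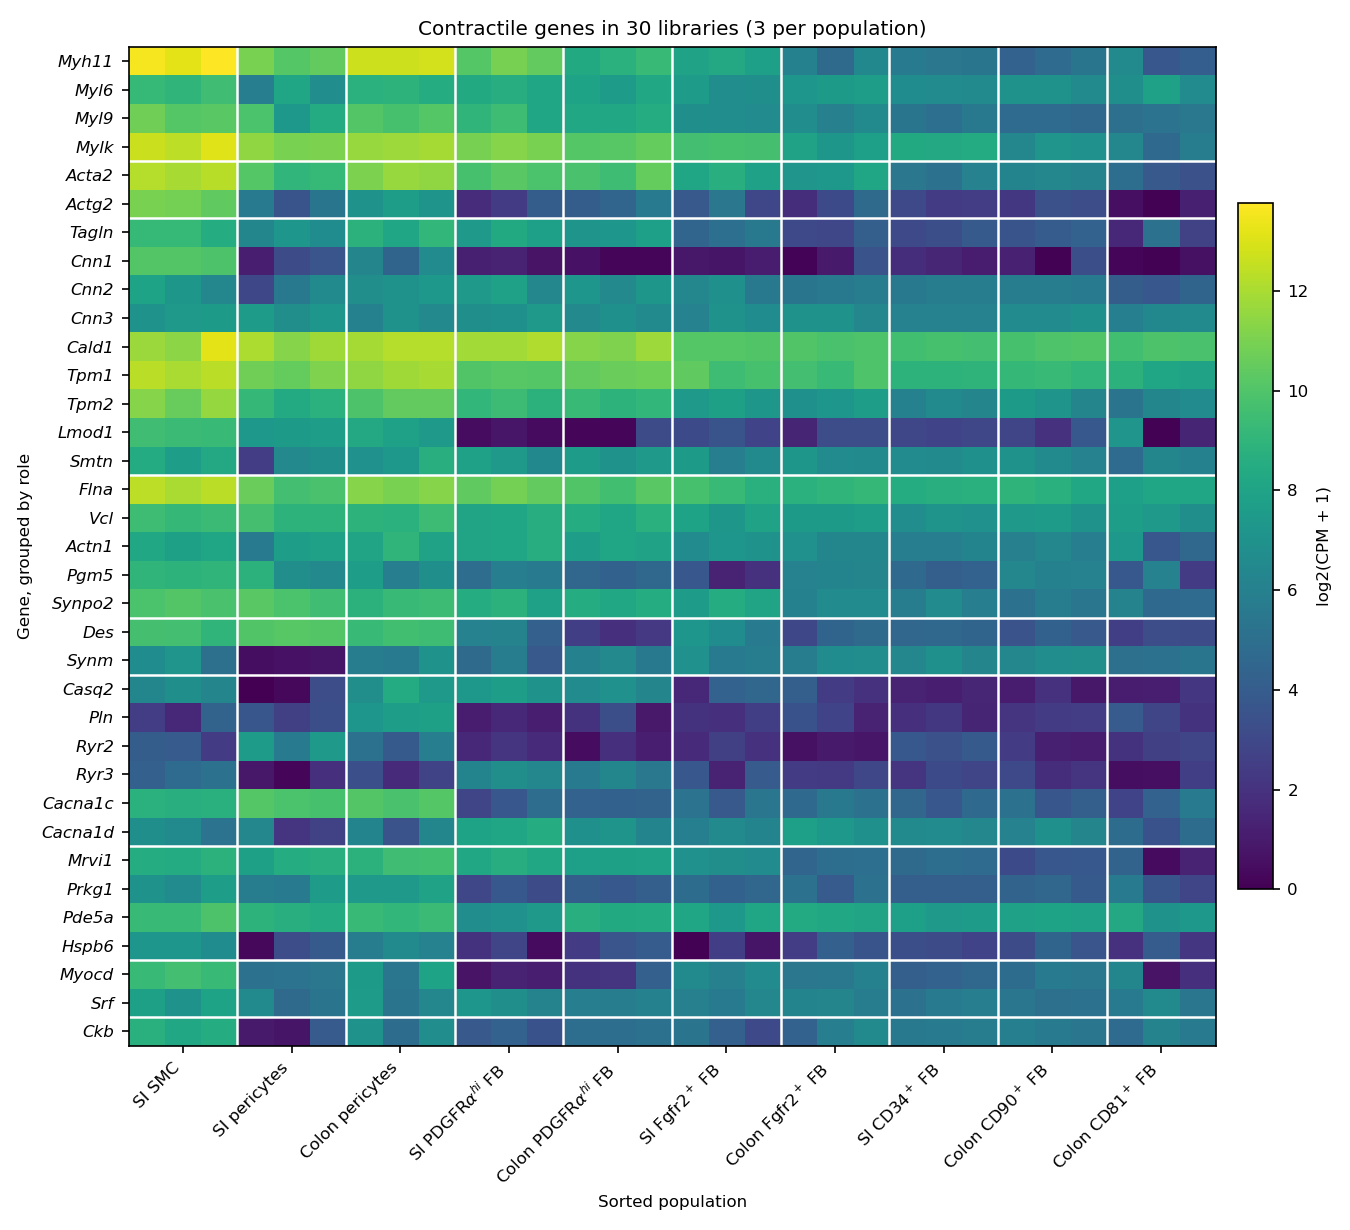
Level of the 35 contractile genes in the 30 libraries, as log2 of CPM plus 1, with libraries grouped by sorted population and genes by role.

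Per kilobase of transcript, the most abundant members in SMC were *Tpm1* (3230 CPM per kb), *Acta2* (2864), *Cald1* (2452), *Tpm2* (1903), *Myh11* (1837) and *Actg2* (1830). In SI pericytes *Cald1*, *Tpm1* and *Myl9* came first, in colonic pericytes *Cald1*, *Tpm1* and *Acta2*, and in SI PDGFRα hi FB *Cald1*, *Tpm1* and *Myl6*. Without replicate 1 of SI pericytes *Myl9* fell there from rank 3 to rank 8 (509 to 270 CPM per kb), and *Des* took rank 3 after *Tpm1* and *Cald1*. Without replicate 3 of SMC *Cald1* fell in SMC from rank 3 to rank 4 (2452 to 1698 CPM per kb), below *Actg2*. *Myh11* ranked 10 in SI pericytes (238 CPM per kb), 6 in colonic pericytes (1074) and 9 in SI PDGFRα hi FB (232).

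SMC and pericytes of SI shared the ESAM-1 gate and differed by PDPN, and both expressed contractile genes, but to different extents. Called higher in SMC were 2 of 4 thick filament genes, both actins and 4 of 9 thin filament genes, while 4 of 5 dense body genes were not called and 1 calcium release channel was higher in pericytes. Of the 35 members, 16 were called higher in SMC (5.35% of genes tested were) and 1 lower (4.79% were), 10.1% of genes being called in all. The median log2 fold change was 1.69 for the members and 0.00 for all genes tested. Of the 17 calls, 14 held whichever 1 library was left out, and 8 of these also in every other setting. A fit of the 6 libraries alone, which called 390 of 13760 genes, lost 7 calls (*Myl6*, *Smtn*, *Casq2*, *Ryr2*, *Ryr3*, *Hspb6* and *Srf*), and limma on TPM lost 3 (*Smtn*, *Ryr3* and *Myocd*) and gained 3 (*Myl9*, *Mylk* and *Cnn2*). *Cnn2*, not called in the model of 30 libraries (1.69, SE 0.56, adjusted p 0.0501), was called higher in SMC in 6 other settings, DESeq2 among them, and without replicate 3 of SI pericytes or replicate 3 of SMC (log2 fold changes 2.07 to 2.53, adjusted p 0.00671 to 0.0266). *Myl9* (1.42, SE 0.41, adjusted p 0.0219) was called without replicate 1 of SI pericytes or replicate 2 or 3 of SMC (log2 fold changes 1.54 to 2.40, adjusted p 8.09e-05 to 0.0306).

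Against SI FB the contractile genes of SMC were higher in nearly every role. The exceptions were 10 genes: *Cnn2*, *Cnn3*, *Smtn*, *Actn1*, *Synm*, *Pln*, *Ryr2*, *Ryr3*, *Cacna1d* and *Srf* were not called. With all 3 SI FB populations as reference, 25 of 35 members were called higher (3.42% of genes were higher and 5.16% called), with a median of 2.53 against -0.04. With the SI PDGFRα hi FB alone as reference, 17 members were called higher (2.50% of genes were, 4.77% called), with a median of 1.58 against -0.01. No member was called lower in either comparison by the edgeR model of 30 libraries (1.74 and 2.27% of genes were) or by DESeq2. In an edgeR fit of only the 6 libraries of SMC and SI PDGFRα hi FB, *Ryr3* (-1.77, adjusted p 0.0414) and *Cacna1d* (-1.89, adjusted p 0.0395) were called lower in SMC. At an unadjusted p under 0.05, 0 members were lower against all FB and 2 against PDGFRα hi FB. The comparisons of SMC share the 3 SMC libraries, so their results are not independent. Whichever 1 library was left out, 22 of the 25 calls and 15 of the 17 held. limma on TPM lost 4 of the 25 (*Myl6*, *Cald1*, *Vcl* and *Casq2*) and 3 of the 17 (*Mylk*, *Tpm2* and *Flna*), and gained none. With 1 library left out, *Pln* was gained against FB without replicate 2 of SMC (log2 fold change 2.26, adjusted p 0.0209), beside *Srf*. Against PDGFRα hi FB, *Myl9* (1.72) and *Synpo2* (1.60) were gained without replicate 2 of SI PDGFRα hi FB, *Synm* without replicate 3 of SMC or replicate 2 of SI PDGFRα hi FB (log2 fold changes 1.96 to 2.17, adjusted p 0.028 to 0.041), *Pln* without replicate 2 of SMC (log2 fold change 2.91, adjusted p 0.0363) and *Ryr2* without replicate 3 of SMC (log2 fold change 2.64, adjusted p 0.0473). DESeq2 also gained *Pln* and *Srf* against FB, and *Synm*, *Pln* and *Ryr2* against PDGFRα hi FB.

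The thick filament carries the motor, and its light chain kinase turns it on. *Myh11*, the smooth muscle myosin heavy chain, was at 12134, 9536 and 13879 CPM in SMC, 2060, 1128 and 1401 in SI pericytes and 6648, 6760 and 7301 in colonic pericytes. SI CD34+ FB held 51.5, 42.8 and 39.2 CPM and CD81+ FB 90.6, 12.1 and 16.4. The lowest SMC library lay above every other library, and all colonic pericyte libraries lay above all those of SI pericytes and FB. *Myh11* was higher in SMC than in SI pericytes (log2 fold change 2.86, SE 0.51, adjusted p 2.78e-04), than in SI FB (5.47, SE 0.37, adjusted p 2.76e-11) and than in SI PDGFRα hi FB (2.91, SE 0.51, adjusted p 3.32e-04). *Mylk*, the light chain kinase, was at 6392, 5425 and 8670 CPM in SMC and 2869, 2056 and 2083 in SI pericytes. All 3 SMC libraries were higher, but the difference of 1.45 (SE 0.29) lay under the fold threshold, and it was called without replicate 1 of SI pericytes or replicate 2 of SMC (log2 fold changes 1.59 to 1.70, adjusted p 0.00125 to 0.00126). Against SI FB it was higher by 2.97 (SE 0.21, adjusted p 1.14e-10). Of the light chains, *Myl6* was higher in SMC than in SI pericytes (log2 fold change 1.99, SE 0.42, adjusted p 0.00188) and SI FB (1.87, SE 0.31, adjusted p 1.08e-04), with all SMC libraries above in both, and *Myl9* than in SI FB (3.36, SE 0.30, adjusted p 4.45e-09). In all, 2 of these 4 genes were called against pericytes and 4 against FB, with medians of 1.72 and 3.17.

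Smooth muscle has an actin found in vessels and many other sites (*Acta2*) and one typical of the gut wall (*Actg2*). The gut form set SMC apart more than the vascular form did. *Actg2* was at 2016, 1906 and 1348 CPM in SMC, 49.4, 10.8 and 40.0 in SI pericytes and 128, 210 and 136 in colonic pericytes. Among FB it peaked at 48.1 CPM (colonic PDGFRα hi FB) and was lowest in CD81+ FB (0.483, 0.0615 and 1.27). *Acta2* was at 4888, 3946 and 4895 CPM in SMC, 1126, 534 and 586 in SI pericytes and 2120, 3144 and 2821 in colonic pericytes, and at 867, 1188 and 926 and 902, 705 and 1437 in the PDGFRα hi FB of SI and colon. For both genes no library of another population reached the lowest SMC library. Against SI pericytes the difference was 5.63 (SE 0.91, adjusted p 7.03e-05) for *Actg2* and 2.52 (SE 0.39, adjusted p 4.61e-05) for *Acta2*. Against SI FB it was 7.49 (SE 0.61, adjusted p 1.05e-09) and 4.19 (SE 0.28, adjusted p 2.66e-11), and against SI PDGFRα hi FB 7.82 (SE 1.00, adjusted p 4.46e-06) and 2.13 (SE 0.39, adjusted p 4.92e-04). Both genes were thus called in all 3 comparisons of SMC, with medians of 4.08 against pericytes and 5.84 against FB.

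Thin filament proteins steady, cap or brake the actin filament. The one closest to an SMC mark was *Cnn1* (calponin, which slows the myosin cycle), at 1097, 1075 and 955 CPM in SMC, 1.23, 8.27 and 11.3 in SI pericytes and 74.8, 20.3 and 100 in colonic pericytes. No FB library passed 10.3 CPM. It was higher in SMC than in SI pericytes (log2 fold change 7.13, SE 1.23, adjusted p 1.72e-04) and SI FB (9.67, SE 0.84, adjusted p 3.21e-09). *Lmod1*, which starts actin filaments, was at 732, 676 and 616 CPM in SMC, 162, 180 and 202 in SI pericytes and 0.395, 0.759 and 0.340 in SI PDGFRα hi FB. SMC and pericytes both lay far above the SI FB. Against SI pericytes it was not called (log2 fold change 1.81, SE 1.17, adjusted p 0.339) although all 3 SMC libraries were higher, and the fit of the 6 libraries alone called it. Against SI FB and SI PDGFRα hi FB it was higher by 7.74 (SE 0.95, adjusted p 1.40e-06) and 10.21 (SE 1.73, adjusted p 1.91e-04). The tropomyosins *Tpm1* and *Tpm2*, which lie along the filament, were higher in SMC than in SI FB (2.53 and 3.49, 3 of 3 libraries above all 9), and *Tpm2* also than in SI pericytes (2.27, SE 0.37, adjusted p 7.63e-05). *Tagln*, which bundles actin, was called against SI pericytes (log2 fold change 2.15, SE 0.63, adjusted p 0.0252) but not without replicate 1 or 3 of SI pericytes or replicate 1 or 2 of SMC (log2 fold changes 2.02 to 2.08, adjusted p 0.0566 to 0.0824). *Smtn*, an actin-binding protein, was called there (2.00, SE 0.65, adjusted p 0.0467) but not without replicate 1 or 2 of SI pericytes or replicate 1, 2 or 3 of SMC (log2 fold changes 1.51 to 2.21, adjusted p 0.0554 to 0.108). The replicate block also lost the *Smtn* call (1.98, adjusted p 0.0636). *Cald1*, which inhibits the myosin motor, differed from SI FB by 1.68 (SE 0.23, adjusted p 5.96e-06) and was not called without replicate 3 of SMC (log2 fold change 0.96, adjusted p 0.00129). The calponins of other tissues, *Cnn2* and *Cnn3*, were not called against FB (log2 fold changes 0.83 and 0.70). Of the 9 genes, 4 were called against pericytes and 6 against FB, with medians of 1.81 and 2.53.

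**Figure D2:**
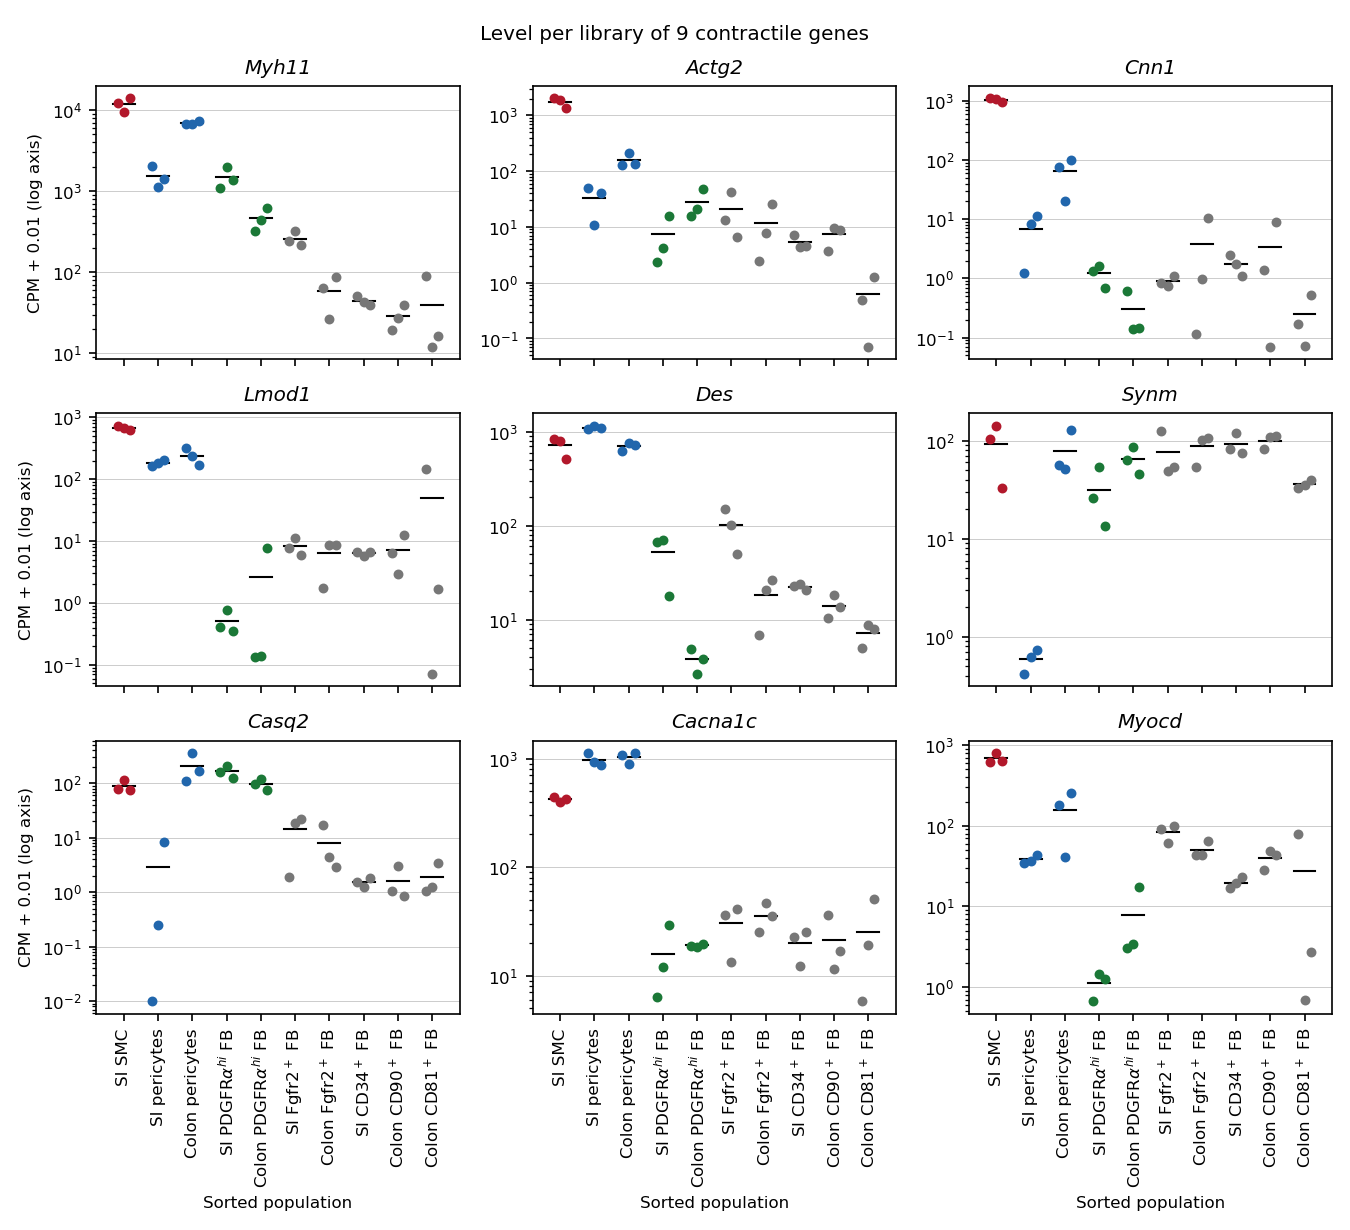
Level per library of 9 contractile genes in the 10 populations (dots, replicates 1 to 3 from left to right; line, mean of 3 libraries; SMC red, pericytes blue, PDGFRα hi FB green, other FB grey).

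Dense bodies and adhesion plaques anchor actin, and desmin and synemin filaments link them. *Flna*, an actin crosslinker, was at 5341, 4113 and 5102 CPM in SMC and 1590, 800 and 899 in SI pericytes, and was higher in SMC (log2 fold change 2.05, SE 0.30, adjusted p 1.47e-05). *Pgm5*, an adhesion plaque protein, was at 519, 482 and 517 CPM in SMC, 28.9, 57.2 and 50.7 in SI PDGFRα hi FB and 12.2, 1.47 and 2.94 in SI Fgfr2+ FB. It was higher in SMC than in SI FB (log2 fold change 4.80, SE 0.53, adjusted p 2.70e-07), with 3 of 3 libraries above all 9. *Synpo2*, a dense body protein, was as high in SI pericytes (1196, 929 and 754 CPM) as in SMC (925, 1063 and 887 CPM), and higher in SMC than in SI FB (2.29, SE 0.27, adjusted p 5.99e-07). *Vcl* (adhesion plaques) was called against SI FB (1.66, SE 0.22, adjusted p 5.82e-06) and *Actn1* (dense bodies) was not (0.94). Of the 5 genes, 1 was called against pericytes and 4 against FB, with medians of 0.61 and 2.29. *Des* was at 843, 801 and 510 CPM in SMC, 1059, 1158 and 1094 in SI pericytes and 630, 763 and 724 in colonic pericytes, and the 3 SI pericyte libraries lay above the other 27. Against SI pericytes *Des* was not called (log2 fold change -0.70, SE 0.45, adjusted p 0.337), and against SI FB it was higher in SMC (3.82, SE 0.34, adjusted p 4.45e-09). *Synm* was at 104, 142 and 33.1 CPM in SMC, 0.410, 0.608 and 0.727 in SI pericytes and 82.4, 120 and 74.4 in SI CD34+ FB. SI pericytes, with at most 6 counts per library, were the only population nearly without it. SMC were higher than SI pericytes (7.18, SE 0.72, adjusted p 4.61e-08), while against SI FB *Synm* was not called (0.58). The median of these 2 genes was 3.24 against pericytes and 2.2 against FB.

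Of the calcium genes, *Ryr3* and *Casq2* were called higher and *Ryr2* lower in SMC than in SI pericytes, and all 3 calls were lost in the fit of the 6 libraries alone (adjusted p 0.149, 0.151 and 0.0568). limma on TPM lost *Ryr3* too (adjusted p 0.0648). *Cacna1c*, the pore of the main voltage-gated calcium channel of smooth muscle, was at 443, 402 and 421 CPM in SMC, 1127, 923 and 872 in SI pericytes and 1091, 898 and 1120 in colonic pericytes. No FB library passed 50.8 CPM. The SMC libraries lay below all pericyte libraries, a difference that was not called (log2 fold change -1.3, SE 0.55, adjusted p 0.127), and above all FB libraries (against SI FB 4.27 (SE 0.41, adjusted p 1.51e-08)). *Ryr2*, a release channel of the calcium store, was lower in SMC (15.5, 14.7 and 4.29 CPM) than in SI pericytes (185, 49.3 and 176 CPM), by -3.64 (SE 0.77, adjusted p 0.00194). *Ryr3*, another release channel, was higher in SMC (17.7, 26.9 and 34.6 CPM) than in SI pericytes (0.819, 0.122 and 2.79 CPM), by 4.3 (SE 0.99, adjusted p 0.0044), but lay below SI PDGFRα hi FB (74.0, 112 and 80.7 CPM). *Casq2*, which binds calcium inside the store, was at 77.8, 114 and 76.0 CPM in SMC, 0, 0.243 and 8.48 in SI pericytes and 163, 210 and 126 in SI PDGFRα hi FB. It was higher in SMC than in SI pericytes (4.83, SE 1.05, adjusted p 0.00237), and the SI PDGFRα hi FB libraries lay above the SMC libraries. Against all SI FB it was called (2.50, SE 0.66, adjusted p 0.0175) but not without replicate 2 of SMC (log2 fold change 2.29, adjusted p 0.0812). *Pln*, the brake on the calcium pump of the store, was low in SMC (4.69, 1.98 and 19.6 CPM), and *Cacna1d*, a second calcium channel pore, was at 114, 93.7 and 37.4 CPM there, 83.0, 3.16 and 5.57 in SI pericytes and 251, 284 and 363 in SI PDGFRα hi FB, where its mean was highest. Between SMC and SI pericytes *Cacna1d* was not called (log2 fold change 1.33, SE 0.75, adjusted p 0.264), but it was without replicate 1 of SI pericytes (log2 fold change 4.21, adjusted p 1.58e-04). Of the 6 genes, 2 were called higher and 1 lower against pericytes and 2 higher against FB, with medians of 0.63 and 1.54.

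The cGMP pathway relaxes smooth muscle. Its 4 genes were all higher in SMC than in SI FB, with a median of 2.59. *Hspb6*, a small heat shock protein that is a target of relaxing kinases, was at 150, 149 and 103 CPM in SMC and 0.205, 8.39 and 13.7 in SI pericytes, and was the only one called between them (log2 fold change 4.09, SE 1.12, adjusted p 0.0163). *Prkg1* (the cGMP-dependent kinase), *Mrvi1* (its substrate at the store) and *Pde5a* (which breaks cGMP down) differed from SI FB by 3.19 (SE 0.42, adjusted p 4.58e-06), 1.93 (SE 0.47, adjusted p 0.00903) and 1.98 (SE 0.22, adjusted p 2.49e-07). The *Mrvi1* call was not made without replicate 3 of SMC (log2 fold change 1.85, adjusted p 0.0576). Against pericytes the median of the 4 genes was 0.64.

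Myocardin separated SMC from the rest more than its partner did. *Myocd* was at 621, 800 and 637 CPM in SMC, 35.0, 36.2 and 43.6 in SI pericytes and 179, 41.1 and 255 in colonic pericytes. SI Fgfr2+ FB held 90.5, 62.0 and 98.2 CPM and SI PDGFRα hi FB 0.658, 1.46 and 1.25. All 3 SMC libraries lay above the other 27, and the SI PDGFRα hi FB were among the lowest libraries although their *Myh11* and *Acta2* were high for FB. *Myocd* was higher in SMC than in SI pericytes (log2 fold change 4.07, SE 0.97, adjusted p 0.00554), SI FB (5.74, SE 0.67, adjusted p 5.59e-07) and SI PDGFRα hi FB (9.13, SE 1.23, adjusted p 9.56e-06). *Srf* was at 225, 135 and 248 CPM in SMC and 93.8, 26.4 and 37.6 in SI pericytes. It was called against pericytes (log2 fold change 1.85, SE 0.51, adjusted p 0.016) but not without replicate 2 or 3 of SI pericytes (log2 fold changes 1.53 to 1.65, adjusted p 0.0526 to 0.0724). Against SI FB it did not pass the fold threshold (1.5, SE 0.37, adjusted p 0.0105), and it was called without replicate 2 of SMC, replicate 2 or 3 of SI CD34+ FB, replicate 1 or 2 of SI PDGFRα hi FB or replicate 3 of SI Fgfr2+ FB (log2 fold changes 1.5 to 1.72, adjusted p 0.0109 to 0.0195). *Srf* was also called against SI FB with RLE, no filter, the stricter filter, only the populations compared and DESeq2. The median of both genes was 2.96 against pericytes and 3.62 against FB. *Ckb*, the creatine kinase that buffers ATP, was at 433, 305 and 366 CPM in SMC, 1.02, 0.730 and 14.5 in SI pericytes and 134, 28.2 and 107 in colonic pericytes, and was higher in SMC than in SI pericytes (5.99, SE 0.90, adjusted p 2.87e-05) and SI FB (3.84, SE 0.54, adjusted p 1.13e-05).

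Pericytes wrap capillaries and share part of the contractile machinery with SMC. In SI the calls against FB went both ways, and within most roles some genes were called and others were not. Higher were 3 of 4 thick filament genes, both actins, 2 of 9 thin filament genes and 3 of 5 dense body genes, of which *Myl9*, *Mylk*, *Acta2*, *Actg2* and *Vcl* were not called without replicate 1 of SI pericytes. Of the 35 members, 16 were called higher in SI pericytes than in SI FB (9.48% of genes were) and 4 lower (7.07% were), 16.6% of genes being called. The median was 1.41 against -0.02 for all genes tested. The largest positive differences were those of *Lmod1* (5.93, SE 0.90, adjusted p 1.68e-05), *Cacna1c* (5.57, SE 0.42, adjusted p 5.39e-11), *Ryr2* (4.93, SE 0.53, adjusted p 5.19e-08) and *Des* (4.53, SE 0.34, adjusted p 5.85e-11), each with 3 of 3 pericyte libraries above all 9 of FB. *Myh11* was higher by 2.61 (SE 0.36, adjusted p 2.91e-06), but its pericyte libraries overlapped those of PDGFRα hi FB (1103, 1997 and 1381 CPM). The same overlap was seen for *Mylk*, *Myl9* and *Acta2*. *Acta2* was at 1126, 534 and 586 CPM in SI pericytes and 867, 1188 and 926 in SI PDGFRα hi FB. For 11 members all pericyte libraries lay above all 9 of FB, as for 4.34% of genes, and for 1 below, as for 6.44%. The genes called lower were *Synm* (-6.60, SE 0.68, adjusted p 2.15e-08), *Ryr3* (-3.70, SE 0.91, adjusted p 0.00418), *Ckb* (-2.15, SE 0.69, adjusted p 0.0271) and *Cacna1d* (-2.00, SE 0.69, adjusted p 0.039). *Ckb* was not called without replicate 1 or 2 of SI pericytes (log2 fold changes -1.71 to -1.63, adjusted p 0.116 to 0.125), and *Cacna1d* was not called without replicate 2 or 3 of SI pericytes, replicate 2 of SI CD34+ FB, replicate 3 of SI PDGFRα hi FB or replicate 2 of SI Fgfr2+ FB (log2 fold changes -1.98 to -1.46, adjusted p 0.0526 to 0.143). Of the 20 calls, 11 held whichever 1 library was left out. Without replicate 1 of SI pericytes the calls of *Myl9*, *Mylk*, *Acta2* and *Vcl* were lost, with log2 fold changes of 0.99, 1.3, 1.21 and 1.23. *Pln* was lost without replicate 1 of SI pericytes (log2 fold change 1.52, adjusted p 0.135), *Actg2* without replicate 1 or 3 of SI pericytes (log2 fold changes 1.42 to 1.72, adjusted p 0.0608 to 0.158) and *Cnn1* without replicate 2 or 3 of SI pericytes (log2 fold changes 2.03 to 2.39, adjusted p 0.0571 to 0.101). *Mylk* was also lost without replicate 1 of SI CD34+ FB or of SI PDGFRα hi FB (1.48 and 1.49). In turn *Tagln* was called without replicate 1 of SI pericytes, replicate 3 of SI CD34+ FB, replicate 2 of SI PDGFRα hi FB or replicate 3 of SI Fgfr2+ FB (log2 fold changes 1.5 to 1.57, adjusted p 0.0286 to 0.0416), *Cnn2* without replicate 3 of SI pericytes (log2 fold change -1.70, adjusted p 0.0263) and *Casq2* without replicate 3 of SI pericytes or replicate 1 of SI Fgfr2+ FB (log2 fold changes -6.54 to -2.50, adjusted p 1.71e-04 to 0.0321). limma on TPM called 12 members, losing 10 of the 20 and gaining *Cnn2* and *Casq2*. A fit of only these populations lost *Actg2*, *Pln*, *Ckb* and *Cacna1d*, RLE also *Cacna1d*, and upper-quartile normalization and no filter *Mylk*. *Myocd* was gained with that fit, with no filter and with DESeq2, and *Casq2* with the last 2 of these.

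In colon the pericytes held more of most contractile genes than FB. Of the 35 members, 25 were called higher (9.29% of genes were; 16.0% of genes were called), with a median of 2.81 against 0.01. No member was called lower (6.70% of genes were) by edgeR or by DESeq2, and 0 were lower at an unadjusted p under 0.05. *Myh11* was at 6648, 6760 and 7301 CPM in colonic pericytes and 322, 439 and 625 in colonic PDGFRα hi FB, the highest FB population there. It was higher in pericytes by 6.56 (SE 0.34, adjusted p 1.60e-14). *Des* (6.30, SE 0.32, adjusted p 1.26e-14), *Cnn1* (6.04, SE 0.69, adjusted p 1.3e-07), *Cacna1c* (5.42, SE 0.37, adjusted p 5.57e-12), *Pln* (5.22, SE 0.51, adjusted p 7.73e-09) and *Casq2* (4.94, SE 0.61, adjusted p 4.03e-07) were also higher. The pericyte libraries lay above all 12 FB libraries for *Des*, *Cnn1*, *Cacna1c* and *Pln*, and overlapped them for *Casq2*, whose PDGFRα hi FB libraries held 97.7, 122 and 74.9 CPM against 110, 359 and 165. Of the 25 calls, 22 held whichever 1 library was left out and in every other setting. The exceptions were *Cnn2*, not called without replicate 3 of colonic pericytes, replicate 2 of CD81+ FB, replicate 1 of colonic Fgfr2+ FB or replicate 2 of colonic PDGFRα hi FB (log2 fold changes 1.42 to 1.5, adjusted p 0.00986 to 0.0354), *Actn1*, not called without replicate 2 of colonic pericytes (log2 fold change 1.34, adjusted p 0.0618), and *Pgm5*, not called without replicate 1 or 3 of colonic pericytes or replicate 1 or 3 of CD81+ FB (log2 fold changes 1.05 to 1.66, adjusted p 0.0267 to 0.255). *Myl6* was gained without replicate 3 of colonic pericytes or replicate 2 of CD81+ FB (log2 fold changes 1.53 to 1.53, adjusted p 2.05e-04 to 0.002). limma on TPM and upper-quartile normalization lost *Cnn2* and *Pgm5*, and the replicate block *Pgm5*.

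Pericytes of the 2 tissues, taken by the same gate, differed in the programme: in SI they held less *Myh11* and *Acta2* and little of *Casq2* and *Pln*. In the same libraries the endothelial markers summed to 156 to 266 CPM in SI and 42.7 to 103 in colon, and the fibroblast markers to 3182 to 4524 and 2225 to 2604. The 3 libraries of SI pericytes lay below all 3 of colonic pericytes for 20 members, as for 7.16% of genes, and above for 2 (*Synpo2* and *Des*), as for 4.94%. *Casq2* was at 0, 0.243 and 8.48 CPM in SI and 110, 359 and 165 in colon, *Pln* at 11.9, 4.99 and 8.84 and 149, 206 and 229. *Synm* was at 0.410, 0.608 and 0.727 CPM in SI and 56.6, 51.4 and 127 in colon, and *Hspb6* at 0.205, 8.39 and 13.7 and 54.1, 93.1 and 67.6. By contrast, *Cacna1c* and *Lmod1* overlapped between the tissues (-0.06 and -0.39, not called). Called lower in SI were 7 members (2.74% of genes were lower and 5.72% called): *Myh11* (-2.14, SE 0.50, adjusted p 0.0119), *Acta2* (-1.81, SE 0.38, adjusted p 0.00595), *Synm* (-6.97, SE 0.71, adjusted p 7.54e-07), *Casq2* (-6.13, SE 1.11, adjusted p 0.00158), *Pln* (-4.47, SE 0.87, adjusted p 0.0029), *Ckb* (-4.01, SE 0.83, adjusted p 0.00486) and *Myl6* (-1.54, SE 0.42, adjusted p 0.0289). *Myl6* was not called without replicate 1 or 2 of colonic pericytes or replicate 1 or 3 of SI pericytes (log2 fold changes -1.5 to -1.19, adjusted p 0.054 to 0.0922). Without replicate 1 of SI pericytes, *Myl9* (-2.03) and *Cacna1d* (-3.62) were also called lower in SI. *Tpm2* was called lower without replicate 1 of colonic pericytes or replicate 1 of SI pericytes (log2 fold changes -1.68 to -1.57, adjusted p 0.017 to 0.0213), *Cnn2* without replicate 3 of SI pericytes (log2 fold change -2.32, adjusted p 0.0173) and *Ryr3* without replicate 3 of SI pericytes (log2 fold change -3.68, adjusted p 0.0404). *Myl6* was also lost with RLE and DESeq2. With no filter and with DESeq2, *Actg2*, *Cnn1*, *Hspb6* and *Tagln* were gained. The replicate block gained *Hspb6*. limma on TPM gained *Actg2*, *Cnn1*, *Hspb6*, *Cnn2*, *Myl9* and *Tpm2*. The edgeR test called 0 members higher in SI (2.98% of genes were), with 1 at an unadjusted p under 0.05 (*Ryr2*) and 1 called by DESeq2, the same gene. The median was -1.05 against 0.00 for all genes tested. A fit of these 6 libraries alone called 0 of 13361 genes, members among them, although 1090 genes had an unadjusted p under 0.05, so the 7 calls were made only in fits that held other populations too.

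Whether the pericyte difference from FB itself differed between tissues was asked with an interaction test, in which a negative value means that pericytes minus FB was lower in SI than in colon. That can come from less in SI pericytes, more in SI FB, or both, and the FB references are unlike sets: 3 populations in SI, with the CD34+ mixture, and 4 in colon, with CD81+ FB. Of the 35 members, 13 were called lower (1.72% of genes were; 3.76% of genes were called), and the median was -1.68 against 0.00. edgeR called 0 members higher (2.04% of genes were), with 1 at an unadjusted p under 0.05 and 0 by DESeq2. The largest values were those of *Casq2* (-7.26, SE 1.22, adjusted p 8.05e-04), *Synm* (-6.83, SE 0.74, adjusted p 1.92e-06) and *Myh11* (-3.95, SE 0.58, adjusted p 1.51e-04). *Acta2* (-2.76, SE 0.44, adjusted p 4.15e-04), *Mylk* (-2.63, SE 0.34, adjusted p 2.86e-05) and *Myl9* (-1.92, SE 0.46, adjusted p 0.018) were also called, and these 6 calls held whichever 1 of the 27 libraries was left out and in every other setting. These values also take in the FB, in which the pericyte markers summed to 2269 to 4399 CPM in SI and 293 to 1003 in colon. Whether that bears on the values was not tested. Between the pericytes themselves, *Myh11* (-2.14), *Acta2* (-1.81), *Synm* (-6.97), *Casq2* (-6.13), *Pln* (-4.47) and *Ckb* (-4.01) were called, and the other 7 of the 13 were not (-1.93 to -0.54). Those calls were not made in a fit of the pericyte libraries alone, which called 0 of 13361 genes. *Mylk* was not called between pericytes (-0.54), with means of 2336 CPM in SI and 3464 in colon. All its SI libraries (2869, 2056 and 2083 CPM) lay below the colonic ones (3130, 3447 and 3813 CPM). Its means in SI FB were 2160 CPM (PDGFRα hi), 829 (Fgfr2+) and 333 (CD34+), and in colonic FB 1240 (PDGFRα hi), 204 (Fgfr2+), 117 (CD90+) and 54.0 (CD81+). For *Synm* and *Ckb* the pericytes were called lower than FB in SI (-6.60 and -2.15) and were not called against FB in colon (0.23 and 0.99). The other calls each depended on single libraries. *Tagln* (-2.72) was not called without replicate 1 or 3 of colonic pericytes or replicate 1 of SI pericytes (log2 fold changes -2.66 to -2.54, adjusted p 0.0521 to 0.076), and *Cnn2* (-2.39) not without replicate 3 of colonic pericytes or replicate 1 or 2 of SI pericytes (log2 fold changes -2.37 to -1.90, adjusted p 0.0526 to 0.0623). *Pln* (-3.35) was not called without replicate 2 or 3 of colonic pericytes, replicate 1 or 2 of SI pericytes or replicate 2 of SI CD34+ FB (log2 fold changes -3.68 to -3.08, adjusted p 0.0501 to 0.0821), and *Mrvi1* (-2.94) not without replicate 1 of SI pericytes (log2 fold change -2.74, adjusted p 0.0696). *Tpm2* (-1.68) and *Flna* (-1.67) were both not called without replicate 2 of SI pericytes (log2 fold changes -1.5 and -1.48). *Ckb* (-3.14) was not called without replicate 1 or 3 of colonic pericytes, replicate 2 or 3 of CD90+ FB, replicate 1 of colonic PDGFRα hi FB, replicate 1 or 2 of SI pericytes, replicate 2 or 3 of SI CD34+ FB, replicate 1 or 2 of SI PDGFRα hi FB or replicate 1 of SI Fgfr2+ FB (log2 fold changes -3.16 to -2.62, adjusted p 0.0503 to 0.0983). Calls were gained too, each negative: *Cacna1d* without replicate 1 of SI pericytes (log2 fold change -4.35, adjusted p 9.98e-04), *Srf* without replicate 1 of SI pericytes (log2 fold change -2.05, adjusted p 0.0462), *Ryr3* without replicate 2 of colonic pericytes, replicate 3 of CD81+ FB, replicate 3 of SI pericytes or replicate 2 of SI Fgfr2+ FB (log2 fold changes -4.97 to -3.65, adjusted p 0.016 to 0.0461) and *Des* without replicate 2 or 3 of CD81+ FB, replicate 1 or 3 of colonic Fgfr2+ FB, replicate 3 of SI PDGFRα hi FB or replicate 3 of SI Fgfr2+ FB (log2 fold changes -1.91 to -1.67, adjusted p 0.0211 to 0.0489). *Myl6* was gained without replicate 2 of CD81+ FB or replicate 2 of SI pericytes (log2 fold changes -2.36 to -1.66, adjusted p 0.00266 to 0.0322), *Actg2* without replicate 3 of CD81+ FB or replicate 3 of colonic Fgfr2+ FB (log2 fold changes -3.16 to -3.15, adjusted p 0.0335 to 0.0393), *Cnn1* without replicate 3 of CD90+ FB or replicate 3 of colonic Fgfr2+ FB (log2 fold changes -4.20 to -4.05, adjusted p 0.0262 to 0.0377) and *Actn1* without replicate 1 of CD81+ FB (log2 fold change -1.94, adjusted p 0.0175). DESeq2 called 18 members, with *Actg2*, *Cnn1*, *Smtn*, *Des* and *Ryr3* beside the 13 (*Smtn* at an adjusted p of 0.05 after rounding), but it also called 1909 of the 17542 genes tested, where edgeR called 659. A fit of only the 27 libraries lost *Ckb* and gained *Des*, and limma on TPM lost *Flna* and gained *Cald1*, *Cnn1* and *Myl6*. With no filter *Myl6*, *Actg2*, *Cnn1*, *Des* and *Ryr3* were gained, and with the stricter filter *Myl6*, *Des* and *Ryr3*. Upper-quartile normalization gained *Myl6*, and the replicate block *Ryr3*. This test uses the libraries of both pericyte comparisons and of the FB, so it does not stand apart from them.

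**Figure D3:**
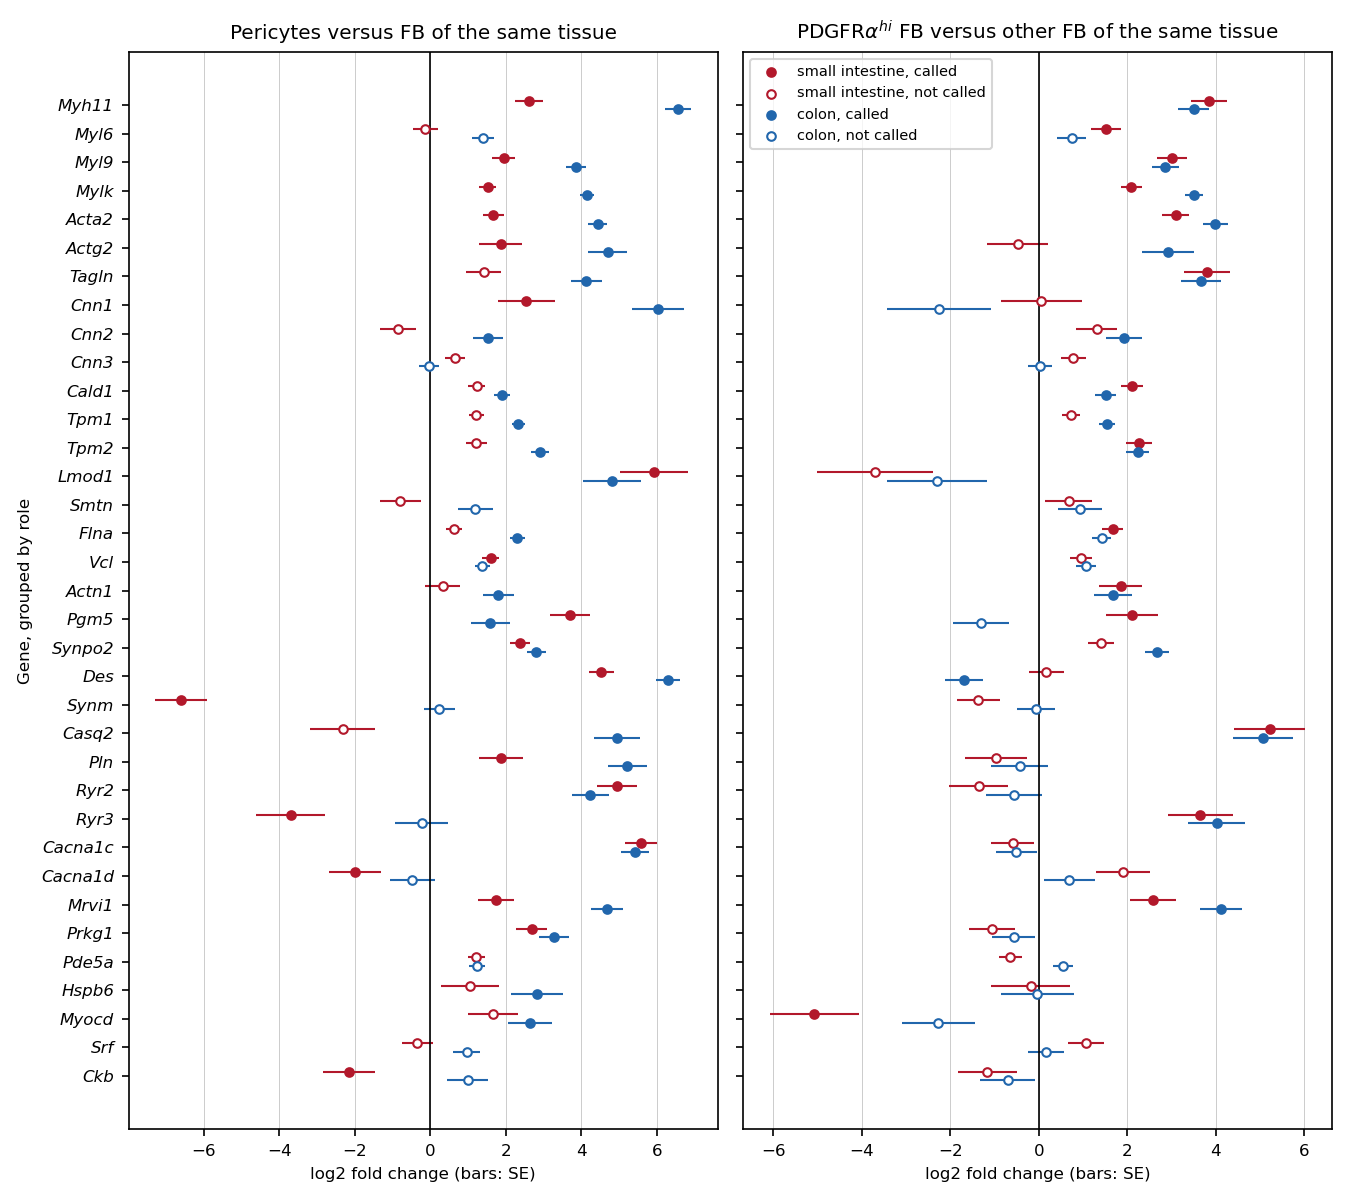
Log2 fold change and SE of the 35 contractile genes in pericytes against FB (left) and in PDGFRα hi FB against the other FB of the tissue (right), in SI (red) and colon (blue); filled points were called.

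Among FB, the PDGFRα hi populations held more of part of the programme. In SI they held more *Myh11*, *Mylk*, *Myl9*, *Acta2*, *Tpm2*, *Tagln*, *Casq2* and *Ryr3* than the other FB, while *Cnn1*, *Actg2*, *Ryr2* and *Pln* were not called and *Myocd* was lower. Of the 35 members, 14 were called higher (1.68% of genes were) and 1 lower (1.70% were), 3.38% of genes being called, and the median was 1.06 against 0.01. *Casq2* was at 163, 210 and 126 CPM in SI PDGFRα hi FB, 1.93, 18.9 and 22.1 in SI Fgfr2+ FB and 1.51, 1.22 and 1.82 in SI CD34+ FB. *Tagln* was at 170, 333 and 220 CPM, 21.2, 31.4 and 46.3 and 7.08, 9.04 and 13.9 in the same order. For both genes all 3 PDGFRα hi libraries lay above all 6 others. The differences were 5.22 (SE 0.80, adjusted p 5.50e-05) for *Casq2*, 3.85 (SE 0.41, adjusted p 1.72e-07) for *Myh11*, 3.79 (SE 0.52, adjusted p 1.09e-05) for *Tagln*, 3.65 (SE 0.73, adjusted p 0.00179) for *Ryr3*, 3.09 (SE 0.31, adjusted p 9.23e-08) for *Acta2* and 2.59 (SE 0.52, adjusted p 0.00213) for *Mrvi1*. *Myocd* was lower (-5.07, SE 1.01, adjusted p 0.00182), each of its 3 libraries lying below all 6 others, and *Lmod1* also lay below in 3 of 3 but was not called (-3.71, SE 1.31, adjusted p 0.15). *Lmod1* was called lower with no filter (-3.76, adjusted p 0.0203), with only the populations compared (-3.80, adjusted p 0.00488) and with DESeq2 (-3.84, adjusted p 0.0192), and *Cacna1d* higher in the first 2 of these (1.86 and 1.87). *Synpo2* was called higher without replicate 2 of SI CD34+ FB, replicate 3 of SI PDGFRα hi FB or replicate 2 of SI Fgfr2+ FB (log2 fold changes 1.55 to 1.65, adjusted p 0.0021 to 0.00281). Of the 15 calls, 11 held whichever 1 library was left out and in every other setting. The others were *Myl6*, which passed the fold threshold narrowly (1.52, SE 0.34, adjusted p 0.00589) and was not called in 7 other settings, DESeq2 among them (1.47 to 1.49), or without replicate 3 of SI CD34+ FB, replicate 2 of SI PDGFRα hi FB or replicate 2 or 3 of SI Fgfr2+ FB (log2 fold changes 1.38 to 1.5, adjusted p 0.0178 to 0.0546), *Flna*, not called without replicate 2 of SI PDGFRα hi FB (log2 fold change 1.49, adjusted p 7.55e-04), *Actn1*, not called without replicate 1 or 2 of SI CD34+ FB, replicate 2 or 3 of SI PDGFRα hi FB or replicate 1 of SI Fgfr2+ FB (log2 fold changes 1.66 to 1.90, adjusted p 0.0528 to 0.127), and *Pgm5*, not called without replicate 1, 2 or 3 of SI CD34+ FB, replicate 1, 2 or 3 of SI PDGFRα hi FB or replicate 2 or 3 of SI Fgfr2+ FB (log2 fold changes 1.88 to 2.36, adjusted p 0.0503 to 0.19). limma on TPM also lost *Actn1* and *Pgm5*.

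The colonic PDGFRα hi FB also held more of part of the programme than the other FB of the colon. Of the 35 members, 15 were called higher than in the other colonic FB (2.21% of genes were) and 1 lower (1.3% were), 3.51% of genes being called, with a median of 0.93 against -0.06. *Acta2* was at 902, 705 and 1437 CPM, against 144, 162 and 273 in colonic Fgfr2+ FB and 72.7, 82.5 and 70.9 in CD90+ FB. *Casq2* (5.06, SE 0.68, adjusted p 8.57e-06), *Mrvi1* (4.12, SE 0.47, adjusted p 7.76e-07), *Ryr3* (4.02, SE 0.64, adjusted p 1.00e-04), *Acta2* (3.99, SE 0.28, adjusted p 8.68e-11), *Mylk* (3.51, SE 0.21, adjusted p 1.10e-11) and *Synpo2* (2.67, SE 0.27, adjusted p 7.09e-08) were higher, with 3 of 3 libraries above all 9 others. *Des* was lower (-1.70, SE 0.43, adjusted p 0.0173, 3 of 3 libraries below all 9), but not called without replicate 2 or 3 of colonic PDGFRα hi FB (log2 fold changes -1.71 to -1.48, adjusted p 0.0911 to 0.166). Of the 16 calls, 11 held whichever 1 library was left out and in every other setting. The rest, beside *Des*, were *Actg2*, not called without replicate 3 of colonic PDGFRα hi FB (log2 fold change 2.29, adjusted p 0.0544), *Cald1*, not called without replicate 1 of CD81+ FB, replicate 1 of CD90+ FB, replicate 2 of colonic Fgfr2+ FB or replicate 3 of colonic PDGFRα hi FB (log2 fold changes 1.29 to 1.49, adjusted p 1.23e-04 to 0.00306), *Tpm1*, not called without replicate 3 of CD81+ FB, replicate 2 of colonic Fgfr2+ FB or replicate 3 of colonic PDGFRα hi FB (log2 fold changes 1.47 to 1.5, adjusted p 5.04e-06 to 1.14e-04), and *Actn1*, not called without replicate 1, 2 or 3 of colonic PDGFRα hi FB (log2 fold changes 1.59 to 1.78, adjusted p 0.0519 to 0.112). *Myocd* was not called (-2.27, SE 0.82, adjusted p 0.152), but was called lower with no filter (-2.28, adjusted p 0.0402), with DESeq2 (-2.23, adjusted p 0.0318) and without replicate 2 of CD81+ FB (log2 fold change -2.46, adjusted p 0.0354). *Lmod1* was called lower without replicate 3 of colonic PDGFRα hi FB (log2 fold change -6.58, adjusted p 0.039), and *Flna* higher without replicate 2 of colonic PDGFRα hi FB (log2 fold change 1.60, adjusted p 1.06e-04). A fit of only these populations lost *Actn1* and *Des*, limma on TPM lost *Des* and gained *Flna*, and the replicate block lost *Cald1*.

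Between the tissues, *Des* was the only member called in PDGFRα hi FB: 67.6, 70.9 and 17.8 CPM in SI and 4.90, 2.63 and 3.80 in colon, or log2 fold change 3.83 (SE 0.52, adjusted p 4.02e-05). That is 1 of 35 members against 0.336% of genes higher in SI and 0.963% called, with a median of 0.42 against 0.02. These FB were taken by unlike gates, PDGFRα hiCD34- in SI and PDPN+CD34- in colon, so tissue and gate cannot be told apart. Without replicate 3 of SI PDGFRα hi FB the count was 2, with *Pde5a* lower in SI (-1.58, adjusted p 0.0155). *Myh11* lay higher in 3 of 3 SI libraries but was not called (1.74, SE 0.49, adjusted p 0.0987), whereas DESeq2 called it. The interaction test of the PDGFRα hi difference between tissues called 0 members by edgeR (0.650% of genes were called, 0.182% higher and 0.467% lower), with 9 members and 1039 genes at an unadjusted p under 0.05, and DESeq2 called 3 (*Mylk*, *Actg2* and *Pgm5*) among 298 genes in place of 114. The median was -0.15 against 0.09. The FB references of this interaction were unlike sets, with the CD34+ mixture in SI and the CD81+ FB in colon. *Mylk* came closest (-1.42, SE 0.34, adjusted p 0.0426), under the fold threshold, and was called without replicate 1 of CD81+ FB (log2 fold change -1.57, adjusted p 0.00645). Without replicate 1 of CD81+ FB, 3 members were called: *Mylk*, *Mrvi1* (-2.52) and *Myocd* (-4.14). *Actg2* was called without replicate 3 of colonic Fgfr2+ FB or replicate 3 of SI PDGFRα hi FB (log2 fold changes -4.55 to -3.83, adjusted p 0.0376 to 0.0458), *Pgm5* without replicate 3 of CD81+ FB or replicate 1 of SI Fgfr2+ FB (log2 fold changes 3.55 to 4.19, adjusted p 0.0104 to 0.0213) and *Des* without replicate 3 of SI PDGFRα hi FB (log2 fold change 2.28, adjusted p 0.0459). A p that misses the threshold does not show that the tissues are alike.

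The control of contraction around the members was read through 7 lists of genes, for SMC against SI pericytes, where 10.1% of all genes tested were called. A single call among 9 or 12 genes is close to that share, and no list was tested as a whole. Among SRF cofactors and smooth muscle transcription factors, 3 of 14 tested were called: *Csrp1* (2630, 1575 and 1323 CPM in SMC, 150, 226 and 314 in pericytes) and *Foxf2* were higher in SMC and *Csrp2* lower (median -0.79). Of 12 genes of RhoA, ROCK and myosin phosphatase, *Ppp1r12b* alone was called, higher in SMC (888, 885 and 1029 CPM against 62.7, 525 and 210; median -0.16). Of 15 further calcium genes, *Kcnma1* (379, 333 and 382 CPM against 1.23, 1.58 and 9.57) and *Kcnmb1*, which form a calcium-gated potassium channel, were higher, and *Itpr2* and *Stim1* lower (median 0.36). Of 16 agonist receptors, *Ednrb* was higher and *Adra1a*, *Adra1d*, *Ednra* and *Agtr1a* were lower (median 0.40), *Agtr1a* at 20.1, 10.1 and 17.5 CPM in SMC and 463, 613 and 272 in pericytes. *Adra1d* rested on replicate 1 of pericytes (180, 0.851 and 3.63 CPM). Of 10 nitric oxide, cGMP and cAMP genes, *Vipr2* and *Pde4d* were higher and *Gucy1a1*, *Gucy1b1* (86.3, 139 and 131 CPM against 923, 1104 and 654) and *Pde3a* were lower (median 1.26). Of 10 genes for non-muscle myosin and cytoplasmic actin, *Myh10* was higher and *Myh9* lower (median -0.06). Of 9 striated muscle genes tested out of 16, *Actc1*, the heart actin, was higher: 282, 291 and 399 CPM in SMC, 0.615, 0.608 and 0 in SI pericytes and at most 1.13 in FB (median -0.13). The median of all genes tested was 0.00 in this comparison.

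Likeness between members was described by correlation of log2 CPM over the 30 libraries, which form 10 populations of 3, so neighbouring points share a population. The median of the 595 pairwise coefficients was 0.478 (-0.576 to 0.969), and 288 pairs passed 0.5. Over the 10 population means the median was 0.615. *Tpm1* went most with the other members (median 0.721), *Synm* (-0.120) and *Cacna1d* (0.00820) least. Among the genes outside all lists that followed *Myh11* most closely were *Rbpms* (0.906), *Itga1* (0.887), *Filip1l* (0.886), *Syne2* (0.885), *Btbd3* (0.883), *Stum* (0.878), *Tspan2* (0.878), *Map3k20* (0.871) and *Mtss1l* (0.853), n = 30 libraries each. *Tspan2* had means of 401 CPM in SMC, 146 in colonic pericytes and 29.9 in SI pericytes.

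Some members are made as several transcripts, and the leading transcript differed between populations. Of the 26 members with more than 1 transcript, 16 had another leading transcript in at least 1 FB population than in SMC, 6 in SI pericytes and 5 in colonic pericytes. The first count is taken over all FB populations together, so it is not comparable with the other counts. No share over all genes is given, so whether the members stand out in this is not shown. For *Tpm1*, Tpm1-215 held 65.6, 61.9 and 81.2% of the gene's counts in SMC and 47.0, 60.3 and 57.9% in colonic pericytes. In CD81+ FB it held 6.06, 1.42 and 7.46%, and Tpm1-211 led with 69.3, 76.7 and 57.6%. SI CD34+ FB resembled these, with Tpm1-211 at 57.2, 59.1 and 53.9%, while in SI PDGFRα hi FB it held 32.6, 38.1 and 51.5%. For *Cald1*, Cald1-203 led in SI CD34+ FB (69.1, 72.2 and 69.3%), Cald1-204 in SI pericytes (28.8, 64.3 and 65.6%) and Cald1-205 in SMC (26.7, 17.7 and 52.9%). Short single reads tell such transcripts apart by few positions, and the shares varied between replicates. Most members can be told from other genes: the median share of their 31-base words found in another gene was 1.18%. *Tagln* shared 62.2% (58.2% with *Gm48529*) and *Pln* 59.5% (55.5% with *Gm47644*), so their levels are uncertain.

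The CArG box was searched in the 250 bases upstream of the transcription start, on both strands, as CC, 6 bases of A or T, and GG. It was found in 5 of the 30 members with a promoter window (16.7%), against 439 of 27025 genes (1.62%). Only this exact form was searched, and only in these windows. A gene without a match is therefore not shown to lack a variant of the box, or a box elsewhere. Those without a window were *Myh11*, *Actg2*, *Tagln*, *Ryr3* and *Myocd*. The 5 genes were *Myl6*, *Myl9*, *Cnn2*, *Vcl* and *Srf*, the last with 2 boxes; capitals mark the box, and a match describes the sequence and not its use.

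Myl6 (GRCm38.p6, chr10:128493010-128493259, - strand): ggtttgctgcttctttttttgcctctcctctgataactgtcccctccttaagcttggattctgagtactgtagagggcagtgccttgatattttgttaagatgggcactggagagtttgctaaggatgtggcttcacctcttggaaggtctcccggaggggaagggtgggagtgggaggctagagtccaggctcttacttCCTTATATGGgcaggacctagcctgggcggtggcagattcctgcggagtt

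Myl9 (GRCm38.p6, chr2:156775214-156775463, + strand): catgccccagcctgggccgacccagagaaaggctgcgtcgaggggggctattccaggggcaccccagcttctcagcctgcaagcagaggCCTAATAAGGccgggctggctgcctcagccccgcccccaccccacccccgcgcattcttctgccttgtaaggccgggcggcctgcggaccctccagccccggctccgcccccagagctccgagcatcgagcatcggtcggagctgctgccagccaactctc

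Cnn2 (GRCm38.p6, chr10:79988350-79988599, + strand): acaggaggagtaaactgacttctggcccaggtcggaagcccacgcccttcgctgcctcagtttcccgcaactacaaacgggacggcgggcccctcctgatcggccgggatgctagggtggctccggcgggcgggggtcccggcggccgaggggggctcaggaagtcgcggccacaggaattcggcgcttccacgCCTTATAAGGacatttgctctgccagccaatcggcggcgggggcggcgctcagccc

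Vcl (GRCm38.p6, chr14:20929148-20929397, + strand): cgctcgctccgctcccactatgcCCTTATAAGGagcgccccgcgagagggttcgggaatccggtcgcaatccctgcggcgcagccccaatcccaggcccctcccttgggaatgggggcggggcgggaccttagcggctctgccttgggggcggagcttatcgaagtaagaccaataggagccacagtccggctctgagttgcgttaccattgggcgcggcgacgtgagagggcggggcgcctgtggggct

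Srf (GRCm38.p6, chr17:46556163-46556412, - strand): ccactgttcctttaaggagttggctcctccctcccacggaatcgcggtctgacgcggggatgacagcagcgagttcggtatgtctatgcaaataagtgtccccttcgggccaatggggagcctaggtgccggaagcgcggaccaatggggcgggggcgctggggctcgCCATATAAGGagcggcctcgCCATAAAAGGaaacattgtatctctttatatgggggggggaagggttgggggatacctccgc

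Of the 5, only *Myl6* was among the 14 members for which SMC lay above all other libraries. Of those 14, however, *Myh11*, *Actg2* and *Myocd* had no promoter window and could not be searched. Their differences from SI FB were 1.87, 3.36, 0.83, 1.66 and 1.5 in that order. On chromosome 3, *Pde5a* and *Synpo2* lie 0.217 Mb apart, and *Cnn3* 1.27 Mb from *Pde5a*.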

How the data were processed

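The files analysed hold, for each library, the expected counts and TPM (length-scaled transcript abundances) that the authors had deposited for 98492 mouse transcripts from kallisto 0.42.5, run after trimming with Trim Galore 0.4.0 and quality control with FastQC 0.11.2. Estimated counts of the 97116 transcripts found in GENCODE M21 (GRCm38) were summed to 32316 gene symbols. Totals ran from 2245052 to 19096945 counts per library. Testing in edgeR 4.0.16 (R 4.3.3; quasi-likelihood, TMM normalization, 1 model of 30 libraries with a coefficient per population, Benjamini-Hochberg over all genes tested) took in every gene that reached 6 counts in 3 or more of the 30. An interaction is the difference of 2 such differences. Alternatives were DESeq2 1.42.0, limma 3.58.1 on log2(TPM + 1), RLE and upper-quartile normalization, other filters and fold thresholds, the replicate number as a block, a fit of only the populations compared, and leaving out each library in turn. Named genes were the members, their role, pathway and marker lists, the genes of the sorted proteins, and the 10 others most correlated with *Myh11* among genes of at least 10 CPM in SMC, of which 1 is not reported here; *Gm48529* and *Gm47644* were named after their values were seen. Members and lists were chosen with earlier results of these data known. Each list is described by counts and a median, without a test. The code was tested on simulated data, where it called 179 of 200 changed genes and 3 others. Those data had the same spread setting for all genes and populations, with large changes placed in SMC only. They do not show the error rate where populations differ in spread, as they do here.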

Additional observations from a re-analysis of the deposited data

Results flagged for a closer look

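These results were flagged because the difference between pericytes and FB differed between SI and colon in a test of that difference (log2, negative where pericytes minus FB was lower in SI). The value takes in any difference between the FB of the tissues, which are unlike sets of populations. In the thick filament and actin genes, *Myh11* differed by -3.95, *Mylk* by -2.63, *Myl9* by -1.92 and *Acta2* by -2.76. Between the pericytes themselves these genes differed by -2.14, -0.54, -1.08 and -1.81 in that order, with *Mylk* and *Myl9* not called. Among thin filament and crosslinking genes, *Tagln* differed by -2.72, *Cnn2* by -2.39, *Tpm2* by -1.68 and *Flna* by -1.67, none of them called between pericytes. The intermediate filament gene *Synm* differed by -6.83. Of the calcium store and relaxation genes, *Casq2* differed by -7.26, *Pln* by -3.35 and *Mrvi1* by -2.94. The energy buffering gene *Ckb* differed by -3.14. Between pericytes *Synm*, *Casq2*, *Pln* and *Ckb* were called (-6.97, -6.13, -4.47 and -4.01) and *Mrvi1* was not (-0.99). All calls between pericytes were made only in fits that held other populations too. A fit of the pericyte libraries alone called 0 of 13361 genes. In all 13 the value of the flagged test was negative, and no cause was tested.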

How the results depend on the processing

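Of 156 calls of a member in a comparison, each refitted under every alternative (3093 values), 2923 kept direction and call, 170 lost the call and 0 reversed; a lower fold threshold cannot lose a call and is not counted here. The losses were 106 of 1845 with 1 library left out, 26 of 156 with limma on TPM, 22 with only the populations compared, 4 each with the replicate block and upper-quartile normalization, 3 with RLE, 2 each with DESeq2 and no filter, and 1 with the stricter filter. SMC had the highest mean for 20 members by TPM in place of 23.

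With 1 library left out the number of members called ranged from 15 to 18 (SMC against SI pericytes), 23 to 26 (SMC against SI FB), 16 to 20 (against SI PDGFRα hi FB), 14 to 21 (SI pericytes against FB), 24 to 25 (colonic pericytes against FB), 6 to 9 (pericytes between tissues), 11 to 14 (SI PDGFRα hi FB), 12 to 17 (colonic PDGFRα hi FB), 1 to 2 (PDGFRα hi FB between tissues), 0 to 3 (their interaction) and 9 to 16 (pericyte interaction). Where 1 library of a population of 3 is left out, the other 2 are kept. With the replicate number as a block these counts were 17, 25, 17, 20, 24, 8, 14, 15, 1, 0 and 14 in the same order; the authors write of sorting both tissues from the same mice, but which libraries came from which mouse is not stated, so pairing by number is an assumption.

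Counts that moved by more than 1.5 times were these. SMC against SI pericytes: 11 in place of 17 with only the populations compared. SI pericytes against FB: 12 in place of 20 with limma on TPM. Pericytes between tissues: 11 in place of 7 with no filter and with DESeq2, 13 with limma on TPM and 0 with only the populations compared. PDGFRα hi FB between tissues: 2 in place of 1 with a log2 threshold of 1, with no fold threshold, with no filter, with only the populations compared and with DESeq2. Their interaction: 1 in place of 0 with a log2 threshold of 1, no fold threshold, RLE, upper-quartile normalization, only the populations compared and limma on TPM, 2 with no filter and 3 with DESeq2. Over all genes DESeq2 called more than edgeR in every comparison: in these 5, 2941 in place of 1779, 3611 in place of 2904, 2407 in place of 1003, 402 in place of 169 and 298 in place of 114. The cause was not tested.

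limma on TPM moved the median log2 difference of all genes tested by more than 0.1, to these values (0.18 for SMC against SI pericytes, -0.35 against FB and -0.30 against PDGFRα hi FB, -0.54 and -0.28 for SI and colonic pericytes against FB, -0.20 between pericytes, 0.11 for colonic PDGFRα hi FB, -0.13 and -0.27 for the interactions of PDGFRα hi FB and pericytes). Among genes called, the share higher then fell to 30.8% from 66.2% (SMC against FB), 35.9% from 52.4% (against PDGFRα hi FB), 18.7% from 57.3% (SI pericytes against FB), 36.1% from 58.1% (colonic pericytes against FB), 23.3% from 52.0% (pericytes between tissues) and 27.2% from 54.2% (pericyte interaction). With DESeq2 the share fell by more than 10 points to 55.3% for SMC against FB, 45.7% for colonic pericytes against FB and 49.7% in place of 62.9% for colonic PDGFRα hi FB, and by less to 49.7% for SI pericytes against FB and 42.4% in place of 49.6% for SI PDGFRα hi FB. With only the populations compared it was 39.0% in place of 28.1% for the PDGFRα hi interaction. The smallest library (replicate 3 of SI Fgfr2+ FB, 2245052 counts) limits what is seen of scarce transcripts there.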

Other observations

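In 28 of the 30 libraries the most abundant transcript of all belonged to no gene of the reference used, and the most abundant transcript held 14.8 to 55.9% of all TPM, so TPM were rescaled to the matched genes before use. Between 97.8 and 99.2% of estimated counts fell on matched genes.

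Mean correlations of a library with its replicates were 0.737 to 0.806 for pericytes, 0.831 to 0.873 for SMC and 0.965 to 0.969 for SI CD34+ FB. After the population means were taken away, libraries of the same replicate number in different populations had a mean correlation of 0.00748 over 135 pairs (-0.112 to 0.135), and those of different numbers -0.00338. In 23 of 30 libraries the mean correlation was highest with libraries of the same number; whether this comes from shared mice or shared handling was not tested.

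Each population had 3 libraries, and a gene that was not called is not shown to be equal. Each population was sorted by gates that share proteins, so the purity of each is read here only through marker genes. The results concern RNA of untreated adult mice; protein and contraction were not analysed here.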
